A study of Nematostella vectensis with 4 samples.

Results

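*Nvath-like* (NV2g006608000.1) was 1 of 24526 genes counted in a single cell RNAseq atlas of the *Nematostella vectensis* gastrula, and it was chosen by its gene ID, without use of its measured values. It encodes a basic helix-loop-helix transcription factor of the atonal family. Such proneural factors switch on neuronal programs in dividing precursor cells and usually act before genes of differentiated neurons, and in this sea anemone *Nvath-like* is known from neural progenitor cells and is needed for neurons to form. The study's own marker list puts it under progenitors, together with *Nvmyc1*, a myc family transcription factor, and *Nvnanos*, a translational repressor best known from germline and stem cells of other animals.

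Whole embryos, with no treatment named, were collected at 24 h post fertilization, and 4 technical replicate libraries were made from 1 pool of dissociated gastrulae on 1 chip of the 10x Genomics 3′ droplet method. A unique molecular identifier (UMI) tags each transcript before PCR, and its copies count once. There was no second condition, so every comparison is between cells of the same libraries, and since the libraries share their pool of embryos, p-values measure the spread between libraries and not between batches of embryos. All cell types of the embryo were in the pool, and which cells a library holds was not controlled.

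The 4 libraries held 2686 to 8523 barcodes and 22980631 to 56880930 UMIs. Barcodes with at least 500 genes numbered 3680, 2907, 2268 and 7234 in replicates 1 to 4, 16089 in all, and are called cells here. Replicate 4 stood apart, with the most cells and the lowest median depth, 2267 UMIs per cell against 4986 to 6555.5 in replicates 1 to 3, so results that moved without it are given both ways. Pairs of libraries shared 1 to 14 barcode sequences, 38 in all. No doublets were removed in the main values, and the study's text states no removal.

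*Nvath-like* was a low transcript that most cells did not show. Among the cells, 1836, 941, 962 and 1814 *Nvath-like* UMIs were counted in replicates 1 to 4. As counts per 1000000 UMIs (CPM) these were 40.9 (95% exact Poisson interval 39.1 to 42.8), 38.0 (35.6 to 40.5), 42.4 (39.7 to 45.1) and 32.3 (30.9 to 33.9), with a mean of 38.4 ± 4.42 CPM (SD, n = 4 libraries). Replicate 4 was the lowest, and its interval did not overlap those of the other libraries. These intervals, and the binomial intervals and limits for counts of 0 below, cover counting error only.

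The UMIs were unevenly spread over cells. A UMI was found in 375, 225, 211 and 534 cells, 10.2%, 7.74%, 9.30% and 7.38% of the cells of replicates 1 to 4. Of the 1345 cells, 594 held a single UMI and 357 held 5 or more, and the highest count in a cell was between 36 and 48 in each library. The 1% of cells with the most *Nvath-like* UMIs held 45.9 ± 5.08% of all its UMIs (SD, n = 4).

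Detection followed the depth of a cell. The share with an *Nvath-like* UMI was 2.42 ± 1.14% of cells with under 1000 UMIs, 2.86 ± 0.853% from 1000 to 2000, 5.78 ± 0.925% from 2000 to 5000, 9.24 ± 1.33% from 5000 to 10000, 11.0 ± 0.563% from 10000 to 20000 and 25.7 ± 1.05% above that (SD, n = 4). The mean level over the 4 libraries lay between 32.9 and 51.2 CPM at these depths. Single libraries ran from 22.4 CPM (replicate 2, under 1000 UMIs) to 66.7 CPM (replicate 1, 5000 to 10000 UMIs). *Nvath-like*-positive cells had a median of 7156 to 12463 UMIs in the 4 libraries, against 2156.5 to 6052 in negative cells.

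Each cell with at least 1000 UMIs was therefore thinned at random to 1000 UMIs, which kept 14172 cells and left out 1917 shallower ones, 62 with an *Nvath-like* UMI and 1855 without. At this depth *Nvath-like* was detected in 103 of 3428, 73 of 2698, 58 of 2078 and 167 of 5968 cells, which is 3.00% (95% Clopper-Pearson interval 2.46 to 3.63), 2.71% (2.13 to 3.39), 2.79% (2.13 to 3.59) and 2.80% (2.39 to 3.25). The mean was 2.82 ± 0.127% (SD, n = 4), and the intervals of all 4 libraries overlapped. Of these 401 positive cells 288 held 1 UMI, 73 held 2 and 40 held 3 or more. Thinned positive and negative cells had median depths before thinning of 2864 to 7638 and 3081 to 7290 UMIs, and mitochondrial UMIs at medians of 0.973 ± 0.183% and 0.989 ± 0.186% (SD, n = 4). Shares in clusters with markers of other cell types, from a separate random draw, can be set beside this. In cluster 6 of the clusters described below, with *NvsnailA*, a gene of the mesoendoderm, at 8.95-fold its level in all other cells, an *Nvath-like* UMI was in 0 of 1029 thinned cells, which allows a share of up to 0.292%, and in 4.55% of cells without thinning. These were deep cells, with a median of 23632.5 UMIs against 5862 in cluster 8, where *Nvath-like* was highest, so they say little of free RNA in shallow cells. In cluster 7, with the gland gene *Nvmucin* at 199-fold and a median of 1416 UMIs, 5 of 578 thinned cells had one. Barcodes with under 500 genes held *Nvath-like* at 44.6 CPM over the 4 libraries, where cells had 32.3 to 42.4 CPM. By library it was at 39.2, 25.9, 81.9 and 41.0 CPM in replicates 1 to 4, with 22 UMIs in 8 barcodes of replicate 3. The part of free RNA in the values was not tested.

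**Figure D1:**
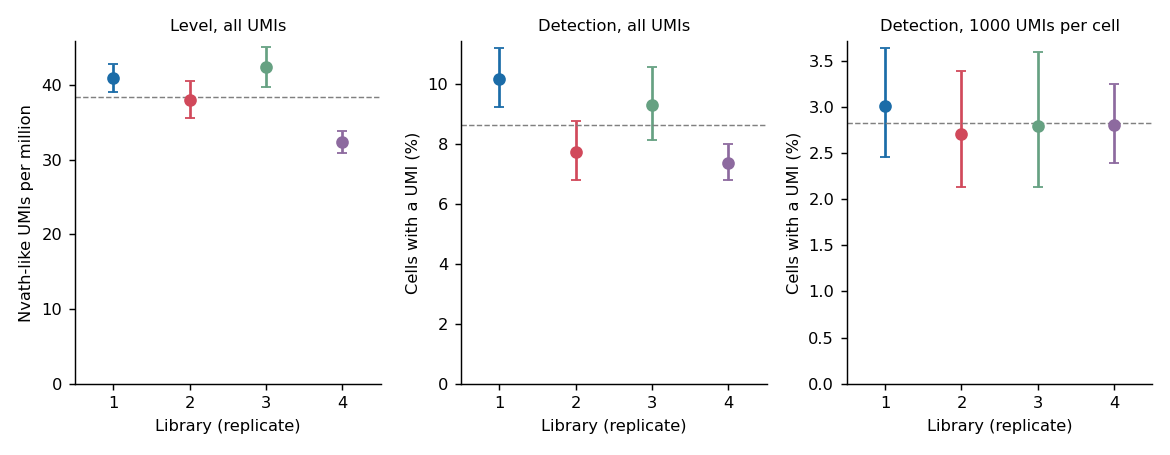
*Nvath-like* by library. Left, UMIs per 1000000 UMIs (CPM) with 95% Poisson intervals. Middle, percent of cells with a UMI, and right, the same after thinning to 1000 UMIs per cell, both with 95% Clopper-Pearson intervals. Dashed lines are means over the 4 libraries. Unthinned shares lie between 7.38% and 10.2%, and thinned ones between 2.71% and 3.00%.

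The thinned cells were then used to ask which other genes were found in the same cells as *Nvath-like*. *Nvmyc1* and *Nvnanos* were higher in positive cells, with log2 fold changes of 2.35 and 3.08. *Nvmucin*, a gland cell gene, and *Nvncol3*, a minicollagen of the stinging capsules of cnidocytes, were lower, with −3.61 and −1.63. The neuronal genes *NvashA*, *Nvelav* and *NvLWamide* did not pass the test. Sums of thinned UMIs per library, in positive and in negative cells, entered the quasi-likelihood F test of edgeR, and p-values were adjusted over 9973 genes by the method of Benjamini and Hochberg. Past an adjusted p of 0.05, 147 genes (1.47% of those tested) were higher and 207 (2.08%) lower in positive cells, with a median log2 fold change of −0.15 over all genes tested. With the library as a block there were 197 higher and 391 lower. Without replicates 1, 2 and 3 in turn there were 183, 116 and 156 calls in all, in place of 354, and without replicate 4 there were 425. In simulated data of these sizes, with the same dispersion for every gene, 85% of 4-fold rises but 35% of 4-fold falls were recovered. Falls of low genes can thus lie below what these counts can show. The rates hold for that setting, and genes that spread more between libraries were not simulated.

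*Nvmyc1* had a UMI in 18.4%, 11.0%, 12.1% and 6.59% of *Nvath-like*-positive cells of replicates 1 to 4, against 2.53%, 2.17%, 1.78% and 2.10% of negative cells. The groups did not overlap, and replicate 4 had the smallest gap. In counts of cells, 45 held both genes, where 9.78 would if detection of each were independent within a library. The level was 136 ± 70.1 CPM in positive cells against 24.1 ± 3.05 CPM in negative cells (SD, n = 4). Its log2 fold change of 2.35 (SE 0.33, adjusted p = 0.000362 by edgeR) was positive in 4 of 4 libraries.

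*Nvnanos* had a UMI in 6.80%, 6.85%, 8.62% and 6.59% of positive cells, against 0.902%, 1.10%, 0.792% and 0.776% of negative cells. No library of positive cells came near those of negative cells. Both genes were found in 28 cells, against 4.18 under independence, and the level was 96.7 ± 41.5 CPM in positive against 10.1 ± 2.14 CPM in negative cells. The log2 fold change of 3.08 (SE 0.36, adjusted p = 5.17e-05 by edgeR) was positive in 4 of 4 libraries. *Nvnanos* can also pass the low-count filter through its counts in positive cells, and without the filter its log2 fold change was 2.91 (adjusted p = 4.96e-13). The calls for *Nvmyc1* and *Nvnanos* held in all 20 further random draws of the 1000 UMIs, and in each alternative tried.

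Because the study lists *Nvath-like*, *Nvmyc1* and *Nvnanos* together, their joint detection is not independent of why they were chosen. Seen from the other side, *Nvath-like* was found in 20.0%, 17.2%, 22.2% and 20.8% of the 30, 29, 18 and 53 cells with *Nvnanos* and no *Nvmyc1*. It was found in 18.8%, 13.3%, 15.0% and 8.46% of the 96, 60, 40 and 130 cells with *Nvmyc1* and no *Nvnanos*. In cells with neither the shares were 2.37%, 2.30%, 2.33% and 2.51%, so the first 2 classes stood above it in every library. The ranges of these 2 classes overlapped each other. Within each library the *Nvnanos*-only share was the higher, on 4 to 11 positive cells. The *Nvath-like* level was not higher in each, with 233.3 CPM against 312.5 CPM in *Nvmyc1*-only cells of replicate 1. Levels of *Nvath-like* were 365 ± 132 CPM in *Nvnanos*-only, 224 ± 95.4 CPM in *Nvmyc1*-only and 33.7 ± 3.57 CPM in neither (SD, n = 4). Cells with *Nvmyc1* and *Nvnanos* both numbered 18, of which 2 held *Nvath-like*, too few to set beside the other classes.

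**Figure D2:**
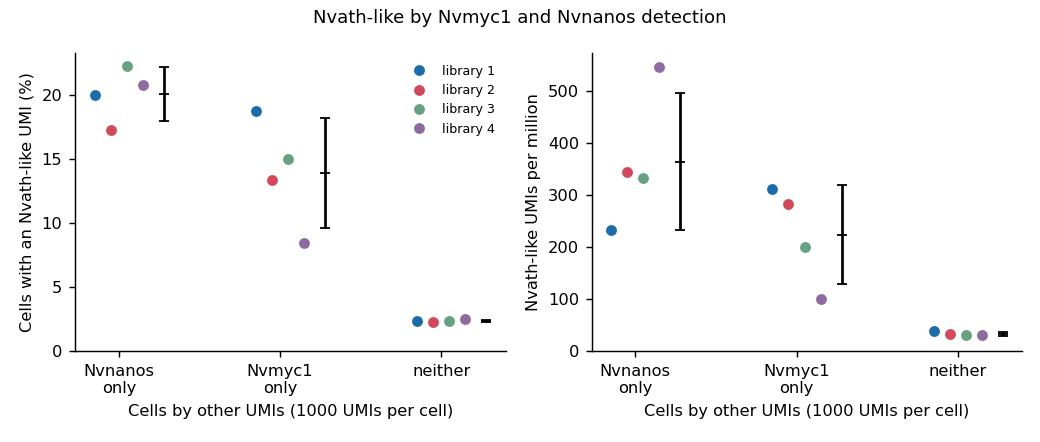
*Nvath-like* in cells sorted by UMIs of *Nvnanos* and *Nvmyc1* at 1000 UMIs per cell. Left, percent of cells with an *Nvath-like* UMI, and right, UMIs per 1000000 UMIs (CPM). Points are libraries, and bars are mean ± SD of 4. *Nvnanos*-only cells lie at 17.2% to 22.2%, and cells with neither at 2.30% to 2.51%.

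Most *Nvath-like*-positive cells showed neither gene at this depth. A UMI of *Nvmyc1* or *Nvnanos* was in 18.6 ± 4.56% of positive against 2.91 ± 0.337% of negative cells (SD, n = 4), and 244 of the 401 positive cells had no UMI of any of the 8 partner genes. Without thinning, *Nvmyc1* was in 47.4% and *Nvnanos* in 28.5% of positive cells, against 6.28% and 3.03% of negative cells, but every partner's mean share was then higher in positive cells, *Nvmucin* too, and these cells were the deeper ones.

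Shares in cells with more and with less *Nvath-like* were then set side by side. Among the 113 cells with at least 2 *Nvath-like* UMIs, 18 had *Nvmyc1* and 13 had *Nvnanos*, and among the 288 with 1 UMI 27 and 15 did. The mean shares for *Nvmyc1* were 15.6 ± 8.82% and 10.1 ± 3.00%, and for *Nvnanos* 10.6 ± 7.80% and 6.33 ± 2.92% (SD, n = 4), and these spreads overlapped.

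*NvashA*, an achaete-scute proneural gene, had a UMI in 2, 0, 0 and 4 of the positive cells of replicates 1 to 4. These were 1.94%, 0%, 0% and 2.40%, against 2.23%, 1.90%, 2.28% and 3.45% of negative cells. A count of 0 allows up to 4.11% in replicate 2 and up to 5.17% in replicate 3, so the lower share was not detectable in either library alone. In edgeR the log2 fold change was −1.66 (SE 0.49, adjusted p = 0.0760), and with the library as a block it passed, with an adjusted p of 0.0363. It depended on the random draw. Over 20 further draws the log2 fold change ran from −2.69 to 0.42 with a median of −0.84, and 1 draw passed. The shares expected over every possible draw were 1.94 ± 1.52% in positive and 2.58 ± 0.647% in negative cells (SD, n = 4), lower in replicates 1 to 3 and higher in replicate 4.

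*Nvelav*, an RNA-binding protein gene of neurons, was found in 3.66 ± 1.57% of positive against 2.59 ± 0.440% of negative cells (SD, n = 4), higher in 3 of 4 libraries. Its log2 fold change of 0.41 (SE 0.37, adjusted p = 0.642 by edgeR) did not pass. *NvLWamide*, a neuropeptide precursor, had a UMI in 1.94%, 2.74%, 3.45% and 11.4% of positive against 3.25%, 2.86%, 3.02% and 5.86% of negative cells. Replicate 4 stood far above the rest in both groups and decided the value. Its positive cells held 53 of the *NvLWamide* UMIs, against 2 to 4 in each other library. The log2 fold change was 0.12 (SE 0.45, adjusted p = 0.937 by edgeR) with all libraries and −1.75 (adjusted p = 0.00772) without replicate 4. When positive cells had to hold at least 2 *Nvath-like* UMIs it was −3.34 (adjusted p = 0.00174). In counts of cells, *NvLWamide* was found in 23 of the 288 cells with 1 *Nvath-like* UMI and in 2 of the 113 with more.

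Of the cnidocyte genes, *Nvncol3* was lower in positive cells. It had a UMI in 11.7%, 6.85%, 12.1% and 26.3% of positive against 18.5%, 15.2%, 14.8% and 29.3% of negative cells. The share was lower in each library, and the level was 628 ± 512 CPM in positive against 2020 ± 233 CPM in negative cells (SD, n = 4). The log2 fold change was −1.63 (SE 0.32, adjusted p = 0.00810 by edgeR). It passed in 19 of 20 further draws, was −2.49 without replicate 4, and did not pass without replicate 2 (adjusted p = 0.101) or replicate 3 (adjusted p = 0.0683). *Nvncol1*, another minicollagen, was in 0, 1, 0 and 2 positive cells, 0.642 ± 0.744% against 1.30 ± 0.493% of negative cells. Its log2 fold change of −1.33 (SE 0.79, adjusted p = 0.426) did not pass. *NvNgal* was not analysed here.

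*Nvmucin* had a UMI in 0, 0, 0 and 3 positive cells, 0%, 0%, 0% and 1.80%, against 3.22%, 3.20%, 3.32% and 3.38% of negative cells. All 4 shares in positive cells lay below all 4 in negative cells. Counts of 0 allow up to 2.91%, 4.11% and 5.17% in replicates 1 to 3. Over the 4 libraries 12.9 joint cells would be found under independence. By edgeR its log2 fold change was −3.61 (SE 0.56, adjusted p = 0.00102), and it passed in 19 of 20 further draws. The size of the fall was unsteady, with −1.86 at 2000 UMIs per cell, −1.19 with no thinning, −0.92 with all UMIs of the same cells summed, and −1.29 in the smallest of the further draws. Without replicate 4, which held all 3 joint cells, positive cells had 0 *Nvmucin* UMIs and the adjusted p was 0.000250. It did not pass at 500 UMIs (−1.79, adjusted p = 0.0899) or in cells with at least 1000 genes (−0.54, adjusted p = 0.541).

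**Figure D3:**
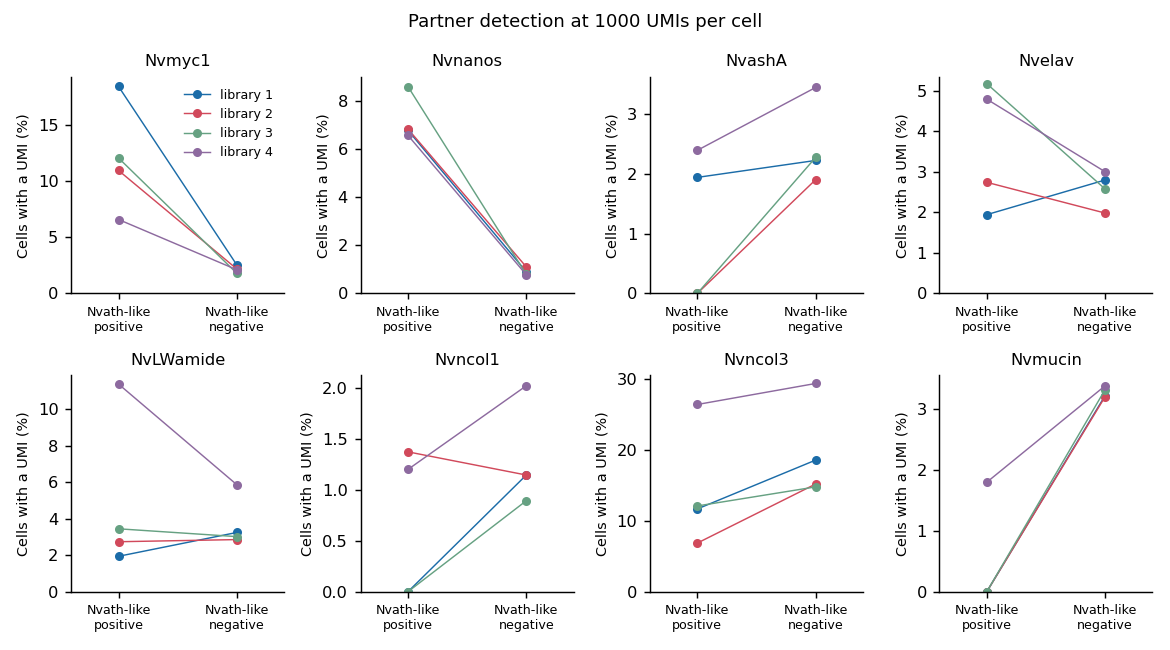
Percent of cells with a UMI of each of the 8 partner genes among *Nvath-like*-positive (left) and *Nvath-like*-negative cells (right), at 1000 UMIs per cell. Each line is 1 library. *Nvmyc1* and *Nvnanos* fall from left to right in all 4 libraries, and *NvashA*, *Nvncol3* and *Nvmucin* climb in all 4 in this draw.

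Among regional genes of the same marker list, *Nvwnt2*, a secreted ligand of the trunk ectoderm, was found in 11.7%, 6.85%, 10.3% and 7.78% of positive against 13.9%, 14.6%, 13.4% and 14.8% of negative cells. The groups did not overlap. The log2 fold change was −0.95 (SE 0.19, adjusted p = 0.00738 by edgeR) and passed in 16 of 20 further draws, but not without replicate 2 (adjusted p = 0.0740), at 500 UMIs per cell (adjusted p = 0.111), with the other seed (adjusted p = 0.0607), with no thinning (−0.01, adjusted p = 0.973) or with all UMIs of the same cells summed (−0.56, adjusted p = 0.133). *NvsnailA* was in 1, 0, 0 and 3 positive cells, 0.692 ± 0.867% against 2.91 ± 0.634% of negative cells, with a log2 fold change of −1.77 (SE 0.61, adjusted p = 0.122). Those shares did not overlap, and *NvsnailA* passed as lower with no thinning (−0.90, adjusted p = 0.00107), with all UMIs of the same cells summed (−1.72, adjusted p = 0.0166) and without the low-count filter (−1.95, adjusted p = 0.0304). NV2g011441000.1, which the list gives under the names of a pair of ectodermal genes, was in 6.29 ± 3.51% of positive against 4.49 ± 0.648% of negative cells, with a log2 fold change of 0.32 (SE 0.33, adjusted p = 0.702). It passed as higher at 2000 UMIs per cell (1.21, adjusted p = 0.000226) and with no thinning (1.74, adjusted p = 9.04e-05), and as lower where positive cells held at least 2 *Nvath-like* UMIs (−1.98, adjusted p = 0.0493). Of the 11 genes of the list tested here, 2 were thus higher and 3 lower in the main fit. Over all 9973 genes tested, 1.47% were higher and 2.08% lower. The list was made of cell type markers, and the call of *Nvwnt2* was unsteady, as given above.

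**Figure D4:**
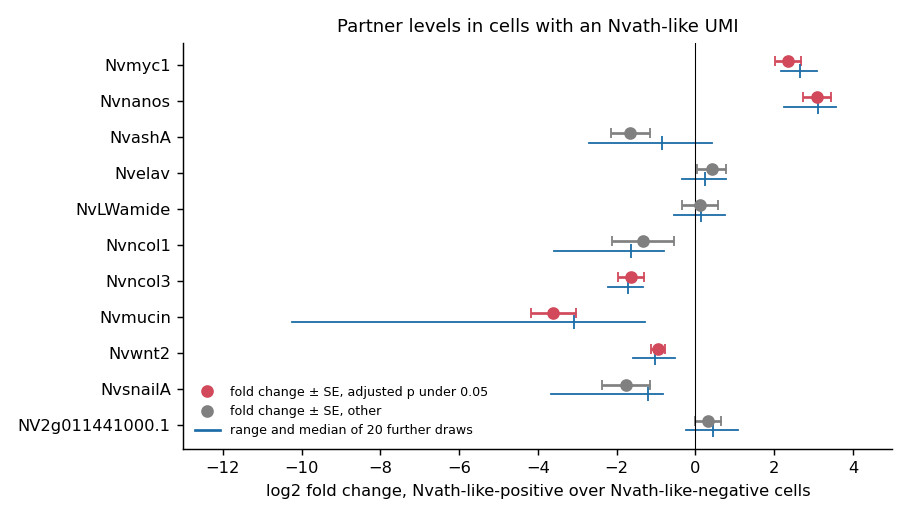
Log2 fold change of each marker gene in *Nvath-like*-positive over *Nvath-like*-negative cells. Points are the values of the text ± SE, red where the adjusted p was under 0.05, and blue lines give the range and median of 20 further random draws. *Nvmyc1* at 2.35 and *Nvnanos* at 3.08 lie to the right of 0 in every draw, and the range of *NvashA* crosses 0.

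Outside the marker list, the largest rises, counting genes whose direction was shared by 4 of 4 libraries, were in unnamed genes. NV2g001396000.1 had 39 UMIs in positive cells and 108 ± 81.5 CPM, against 4.77 ± 1.84 CPM in negative cells (SD, n = 4). Its log2 fold change was 4.16 (SE 0.46, adjusted p = 2.97e-05 by edgeR). NV2g000810000.1 had 17 UMIs and 41.6 ± 11.9 CPM against 3.33 ± 0.163 CPM, with a log2 fold change of 3.60 (SE 0.44, adjusted p = 8.05e-05). Genes this low in negative cells pass the low-count filter only through high counts in positive cells, which largely fixes the direction of their rise. NV2g001396000.1 was tested in 19 and NV2g000810000.1 in 12 of 20 further draws. Without the filter their log2 fold changes were 4.00 (adjusted p = 1.78e-22 by edgeR) and 3.42 (adjusted p = 8.18e-08). The largest falls were in NV2g013058000.1 and NV2g019511000.1, which had 0 UMIs in all positive cells and 393 and 382 UMIs in negative cells. Against a limit of 3 UMIs over the positive cells they were at least 3.81-fold and 3.70-fold lower. This bound holds for this draw of UMIs alone, and they passed in 7 and 9 of 20 further draws. With all UMIs of the same cells summed the log2 fold changes were −3.33 (adjusted p = 0.00233 by edgeR) for NV2g013058000.1 and −0.40 (adjusted p = 0.629) for NV2g019511000.1.

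To set *Nvath-like* beside *Nvmyc1* directly, 356 cells with *Nvath-like* and no *Nvmyc1* were compared with 299 cells with *Nvmyc1* and no *Nvath-like*. Of 1049 genes with enough UMIs to test, 20 (1.91%) were higher and 5 (0.477%) lower in *Nvath-like*-only cells by edgeR. With the library as a block 42 were higher and 20 lower. The call count fell with a library left out, to 4, 0, 9 and 23 without replicates 1 to 4 in turn. Genes at an unadjusted p under 0.05 by edgeR numbered 115 with all libraries, and 84, 101, 101 and 96 in those fits. *Nvnanos* was in 7.43 ± 0.394% of *Nvath-like*-only against 5.98 ± 2.69% of *Nvmyc1*-only cells, and these ranges overlapped. *NvashA* was in 5 of 356 against 11 of 299 cells. *Nvwnt2* was in 33 against 51 cells, 9.48 ± 3.53% against 15.5 ± 6.41% (SD, n = 4), with a log2 fold change of −1.19 (SE 0.41, adjusted p = 0.235). With the library as a block its adjusted p was 0.0196. *Nvncol3* was in 14.6 ± 8.48% against 21.3 ± 6.07% of cells, with a log2 fold change of −0.10 (SE 0.47, adjusted p = 0.989).

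Against *Nvnanos*, 373 *Nvath-like*-only cells were set beside 120 *Nvnanos*-only cells, and 649 genes could be tested. By edgeR 5 (0.77%) were higher and 5 (0.77%) lower in *Nvath-like*-only cells, and 10 and 9 with the library as a block. The count was 7, 2, 7 and 11 without replicates 1 to 4 in turn. *NvashA* was in 5 of 373 *Nvath-like*-only cells, 0.901 ± 1.21%, against 9 of 120 *Nvnanos*-only cells, 6.59 ± 4.69% (SD, n = 4). It was lower in *Nvath-like*-only cells in each library, all between 0% and 2.56% against 3.33% to 13.3%. The *Nvnanos*-only shares were 1 of 30, 1 of 29, 1 of 16 and 6 of 45 cells in replicates 1 to 4. Those of replicates 1 to 3 thus rest on 1 cell each, and replicate 4 held most of these cells. The UMIs of *NvashA* were too few for the low-count filter, and no fit that tested it left out replicate 4. In fits that tested it, it was lower in *Nvath-like*-only cells, with log2 fold changes of −3.67 without the filter (adjusted p = 1.88e-06), −3.30 with all UMIs of the same cells summed (adjusted p = 0.0339) and −2.77 with cells thinned to 2000 UMIs (adjusted p = 0.00953). The fit without the filter and the one with all UMIs summed were chosen after the data were seen. *Nvelav* was in 12 of 373 against 11 of 120 cells and *NvLWamide* in 24 against 15, with shares of 0% to 13.8% and 0% to 26.7% over the libraries of *Nvnanos*-only cells that took in those of *Nvath-like*-only cells. *Nvncol3* had a log2 fold change of −0.10 (SE 0.62, adjusted p = 0.976).

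Clusters were then built without the marker genes, *Nvath-like* among the genes left out, so that its level could be read in groups of cells. Marker genes took part only in the choice of low-quality clusters to remove. They held 13670 cells in 19 clusters. In the 12 clusters with at least 20 cells in every library, *Nvath-like* was highest in cluster 8, at 396, 337, 449 and 302 CPM in replicates 1 to 4, a mean of 371 ± 64.7 CPM (SD, n = 4). Cluster 3 came next, at 135, 154, 98.7 and 88.5 CPM, a mean of 119 ± 30.6 CPM. Its highest library lay below the lowest of cluster 8, and its own lowest lay above all 4 libraries of the cluster after it.

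Cluster 8 was small, and it was where *Nvmyc1* and *Nvnanos* were also high. It held 660 cells, 5.49 ± 1.71% of the cells of a library, and 32.7 ± 4.31% of the *Nvath-like* UMIs (SD, n = 4). Its levels were 13.5-fold those of all other cells for *Nvath-like*, 9.04-fold for *Nvmyc1* and 18.3-fold for *Nvnanos*, and 0.88-fold for *NvashA*, 0.86-fold for *Nvelav*, 0.33-fold for *NvLWamide* and 0.07-fold for *Nvncol1*. After thinning, 144 of its 616 cells had an *Nvath-like* UMI, 23.6 ± 2.01%. The share of *Nvath-like* UMIs in the highest cluster lay between 32.2% and 33.8% in 4 other clusterings.

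In cluster 3 *Nvath-like* was above the level of all other cells, and *Nvmyc1* and *Nvnanos* were not. It had 1188 cells and 20.4 ± 6.91% of the *Nvath-like* UMIs (SD, n = 4), with 3.65-fold *Nvath-like*, 0.89-fold *Nvmyc1* and 0.56-fold *Nvnanos* against all other cells. No gene of the marker list was among its leading 50 genes, and the neuronal, cnidocyte, gland and regional genes were at 0.02-fold to 0.88-fold. After thinning, 83 of 1013 cells had an *Nvath-like* UMI, and of these 4 had *Nvmyc1* and 1 had *Nvnanos*. In cluster 8, 30 and 24 of the 144 positive cells did. Of the thinned positive cells, 41.3 ± 12.2% were in cluster 8 and 21.6 ± 4.65% in cluster 3. The share in cluster 8 was lowest in replicate 4, at 23.2%, and this library lowered the mean. Cluster 8 held 43, 36, 30 and 35 of the positive cells of replicates 1 to 4. It made up 2.94% of the cells of replicate 4, against 6.18% to 6.63% in replicates 1 to 3.

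**Figure D5:**
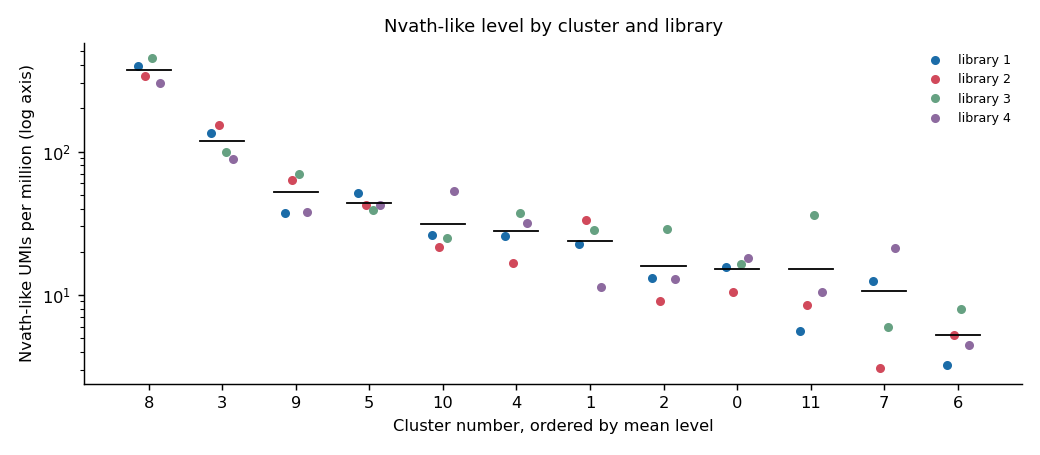
*Nvath-like* UMIs per 1000000 UMIs (CPM) (log axis) in the 12 clusters with at least 20 cells in every library, ordered by mean. Points are libraries and lines are means of 4. Cluster 8 lies at 302 to 449 and cluster 3 at 88.5 to 154, and from cluster 9 on each cluster overlaps the next.

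Of the 11 pairs of neighbours in this order 2 were apart, those just given, and 9 overlapped. Clusters further apart in the order could still differ beyond their spread, and cluster 5, at 39.3 to 51.1 CPM, lay above all libraries of clusters 4, 1, 2, 0, 11, 7 and 6. Cluster 9 was neuron-like by all 3 neuronal markers, with *NvLWamide* at 94.2-fold, *NvashA* at 58.4-fold and *Nvelav* at 26.2-fold. It had *Nvath-like* at 51.9 ± 16.8 CPM, between 37.2 and 69.4 CPM, and a UMI in 20 of 548 thinned cells, 16 of them in replicate 4. *Nvnanos* was also high in cluster 9, at 5.94-fold, where *Nvath-like* was at 1.26-fold and *Nvmyc1* at 0.67-fold. Cluster 5, led by NV2g011441000.1 at 43.2-fold, had 43.8 ± 5.11 CPM. Cluster 10, with *Nvncol1* at 97.8-fold, had 31.5 ± 14.4 CPM. The lowest levels were 10.7 ± 8.03 CPM in cluster 7, with *Nvmucin* at 199-fold, and 5.24 ± 2.02 CPM in cluster 6 (SD, n = 4). The other 7 clusters had 0 to 17 cells in their smallest library and are not ordered.

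Within cluster 8, cells with and without an *Nvath-like* UMI were also compared as counts. *Nvmyc1* was in 19.6% of positive against 15.2% of negative cells and *Nvnanos* in 16.7% against 9.96% (means of 4 libraries). The ranges for *Nvmyc1*, 6.67% to 34.9% and 12.0% to 18.8%, overlapped, and those for *Nvnanos*, 13.3% to 25.7% and 6.25% to 12.5%, did not. *Nvncol3* was in 9 of 144 positive against 121 of 472 negative cells, 6.62 ± 4.64% against 24.6 ± 7.76% (SD, n = 4). Replicate 3 showed no such gap, with 4 of 30 against 11 of 83 cells, 13.3% in both. The cluster was chosen for its level of *Nvath-like*, so these values were not tested.

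Across the 19 clusters, the gene whose mean level was most like that of *Nvath-like* was *Nvmyc1*, with a Pearson correlation of log2(CPM + 1) of 0.89, ahead of NV2g011361000.1 at 0.88 among 16638 genes with at least 100 UMIs. *Nvnanos* ranked 6, at 0.85, and *NvashA* 1608, at 0.50. The clusters come from the same libraries, differ in size and depth, and count alike here, also those too small to be ordered, so this is a description. Cluster 18, for example, entered at 140 CPM, with 18 of its 20 *Nvath-like* UMIs in 1 cell of replicate 2. In 4 other clusterings the value was between 0.57 and 0.87 for *Nvmyc1* and between 0.53 and 0.78 for *Nvnanos*.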

How the data were processed

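The authors counted UMIs per gene and barcode with Cell Ranger, introns included, and deposited raw counts, 1 matrix per library. The file headers name version 6.1.2 and the processing notes 7.1.1, and the study's methods name a version that differs from both. The sources used here do not give the genome build, and 0 gene IDs matched the RefSeq table, so genes carry the study's names or their IDs. Genes, lists and comparisons were chosen with earlier results of these data known. Named genes are those of the study's marker list, the 2 IDs with the largest rise and fall past the threshold and moved alike in 4 of 4 libraries, and the 2 most like *Nvath-like* over clusters.

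Barcodes with at least 500 genes were kept, and those with at least 1000 UMIs thinned without replacement. Sums per library were tested with edgeR 4.0.16 (TMM, filterByExpr, R 4.3.3), and SE is the log2 fold change over the square root of F. DESeq2 1.42.0, other depths, seeds and filters, left-out libraries and doublet scores at an assumed 0.8% per 1000 barcodes were alternatives. Both sums come from the same library, which pairs them. Their deviations from group means had correlations of 0.16, 0.10, 0.05 and 0.22 in replicates 1 to 4 for *Nvath-like*-positive against negative cells, of 0.49, 0.20, 0.15 and 0.45 against *Nvmyc1*-only cells, and of 0.51, 0.06, 0.16 and 0.47 against *Nvnanos*-only cells. Chosen after seeing the data were the 20 further draws, the expected shares over every draw (hypergeometric), the sums of all UMIs, the *NvashA* fit without filter and the minimum of 20 cells for clusters. Clusters (Seurat 5.3.0, 4000 variable genes without the marker list, 30 components, resolution 0.5) used cells with at most 10% mitochondrial UMIs, and 3 low-quality clusters of 2110 cells were removed. The edgeR test was tested on simulated data with 200 genes changed 4-fold, the same dispersion for every gene and no pairing of sums. For *Nvath-like*-positive against negative cells it recovered 60% over 10158 genes, with 8 false calls among 128.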

Additional observations from a re-analysis of the deposited data

Results flagged for a closer look

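Over 38 sets of 4 libraries, 7 held a library far from the other 3. The cutoff would flag about 1 in 20 sets of independent, normally spread values. These sets share cells and some rest on a few counts, so how many would be flagged by chance is not known. Replicate 4 was the high library for *NvLWamide*, with a UMI in 11.4% of *Nvath-like*-positive cells against 1.94% to 3.45% in the others, and in 5.86% of negative cells against 2.86% to 3.25%. It was also high for *Nvmucin* in positive cells, 1.80% against 0% in each other library, for *NvsnailA* in negative cells, 3.84% against 2.44% to 2.68%, and for *Nvath-like* in cluster 10, 52.9 CPM against 21.6 to 26.4 CPM. Replicate 3 was the high library for *Nvnanos* in positive cells, 8.62% against 6.59% to 6.85%, and for *Nvath-like* in cluster 11, 35.9 CPM against 5.55 to 10.4 CPM. The part of depth or cell number in these values was not tested.

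Barcodes with under 500 genes, outside every comparison, held *Nvath-like* as well. There were 77 UMIs in 47 of 2690 such barcodes, 44.6 CPM over the 4 libraries, where a count of 0 would allow 3.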

How the results depend on the processing

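The thinned share of *Nvath-like*-positive cells moved with the depth chosen, to 1.54% at 500 UMIs, 4.69% at 2000 and 8.65% with no thinning, and was 2.98% without the highest doublet scores and 2.77% to 2.86% with a library left out. The calls in *Nvath-like*-positive against negative cells numbered 801 at 2000 UMIs, 4675 with no thinning, 683 with at least 2 UMIs, 2133 with all UMIs of the same cells summed, 796 with no low-count filter and 588 with the replicate block, and 116 to 425 with a library left out. Against *Nvmyc1*-only cells they numbered 9 at 500 UMIs, 175 with no thinning, 15 with another seed, 10 in cells with at least 1000 genes, 14 with at most 10% mitochondrial UMIs, 14 without the highest doublet scores, 16 without the 5% of barcodes with the most UMIs, 5 with at least 2 UMIs, 75 with all UMIs summed, 58 with no filter, 62 with the block and 0 to 23 with a library left out. Against *Nvnanos*-only cells they numbered 61 at 2000 UMIs, 462 with no thinning, 19 with another seed, 20 in cells with at least 300 genes, 5 with at least 1000 genes, 22 with at most 10% mitochondrial UMIs, 19 without the 5% of deepest barcodes, 1 with at least 2 UMIs, 53 with all UMIs summed, 102 with no filter, 19 with the block and 2 to 11 with a library left out.

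*Nvmyc1* (log2 1.92 to 2.83) and *Nvnanos* (2.08 to 3.42) kept their direction and call under all 19 alternatives. *NvashA* was −8.45 at 500 UMIs, −1.83 with no filter and −1.69 with the block, past the threshold each time, and 0.21 with no thinning. *Nvelav* was −0.021 without doublet scores, −0.81 with at least 2 UMIs and 0.57, past the threshold, with all UMIs summed, and −0.18 to 0.72 with a library left out. *NvLWamide* was −0.034 at 500 UMIs, −0.13 with another seed, −0.0054 with at most 10% mitochondrial UMIs, −0.66 without doublet scores, −0.44 without the deepest barcodes, −3.34 with at least 2 UMIs, −0.19 with DESeq2, −0.049 with no filter, −0.14 with the block and −1.75 to 0.43 with a library left out. *Nvncol3* lost its call in cells with at least 300 (−1.76) or 1000 genes (−1.17) and without replicate 2 (−1.55) or 3 (−1.54), with −2.49 to −1.34 over the libraries left out. *Nvmucin* lost it at 500 UMIs (−1.79) and at 1000 genes (−0.54). NV2g011441000.1 was 1.21 at 2000 UMIs and 1.74 with no thinning, past the threshold both times, −0.33 at 500 UMIs, −1.98 with at least 2 UMIs and −0.27 to 0.55 with a library left out. *Nvncol3* was 0.12 without the deepest barcodes against *Nvmyc1*-only cells, and against *Nvnanos*-only cells 0.12 there, 0.49 with all UMIs summed, 0.36 with no filter and −0.69 to 0.41 with a library left out. The cause was not tested, though sums without thinning hold more UMIs and fits without a library fewer samples. The block changed no other call named in the text. At 1000 UMIs per cell, shares rest on 58 to 167 positive cells a library, which limits joint counts.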
